A study of Mus musculus with 10 samples.

Results

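The genes described here are the expressed long intergenic non-coding RNA (lincRNA) genes of the mouse left ventricle under pressure load. A gene was taken when GENCODE release M21 on GRCm38 gives it the class lincRNA and its FPKM (fragments per kilobase of transcript, scaled to library size), summed over its transcripts, averaged at least 1 over all 10 libraries. Of 5838 lincRNA genes in the table, 2448 were above 0 in at least 1 library and 80 reached that mean. Of these, 15 were set aside by name, among them Malat1, Neat1, H19, Meg3, Carmn and small nucleolar RNA host genes, which left 65 genes out of 14787 genes and assembled loci. The genes were thus chosen by their mean FPKM over all libraries, and the levels themselves are a description. The knockout mean alone reached 1 FPKM in 3 of the 65 (Gm12295, Gm30735 and Gm34030) and both means in 49. The wild-type mean alone reached it in 13, Gm36372 and Gm5860 among them. Genes admitted through 1 genotype alone passed through the group in which they are high, so no support is drawn from their differences.

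Sirt5 knockout left ventricles (4 libraries, replicates 2, 3, 4 and 5) were set against wild-type left ventricles (6 libraries, replicates 1, 3, 4, 5, 6 and 7). All 10 came from C57BL/6 mice 6 weeks after transverse aortic constriction (TAC), surgery that narrows the aorta and puts the left ventricle under pressure. Sirt5 encodes a mitochondrial sirtuin that takes succinyl, malonyl and glutaryl groups off lysines. According to the design text the animals were male and 5 weeks old at the start. It describes both a conventional CRISPR-Cas9 knockout and an inducible Cre recombinase switched on by 1 mg tamoxifen on 10 days, without saying which libraries either applies to and without naming the promoter that drives Cre. Sham-operated hearts were not analysed here, so the effect of TAC itself was not measured. Separate animals are not stated for the libraries, and p-values therefore measure the spread between these libraries, which may be technical. Sirt5 was not in the table of non-coding transcripts, so the genotype labels could not be checked against it.

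LincRNAs are transcribed from their own promoters between coding genes, mostly by RNA polymerase II, and are usually spliced and polyadenylated like messenger RNAs. Some act in trans by binding a microRNA or a protein complex, some act on the transcription of a gene beside them, and for many no role is known. Several in the heart lie beside genes of cardiac transcription factors, and a few RNAs annotated as non-coding hold short reading frames that are translated.

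The libraries held an estimated 22700000 to 25800000 fragments in knockout and 24700000 to 29800000 in wild type, read from the step size of low FPKM values. Coding markers of cardiomyocytes, fibroblasts, endothelium, smooth muscle and immune cells were not in the table (0 of 7, 0 of 5, 0 of 5, 0 of 4 and 0 of 6 genes). The heart RNA Mhrt was above 0 in all 10 libraries, at 0.835 to 4.63 FPKM in knockout and 1.22 to 5.78 FPKM in wild type. Hand2os1, which is read beside the cardiac gene Hand2, was at 15.4 to 22 FPKM in knockout and 18.1 to 33.4 FPKM in wild type. Knockout replicate 5 had the lowest of the 10 values for both Mhrt and Hand2os1. Of 4 listed cardiomyocyte lncRNAs, 3 were above 0. The sum of these 3 was 16.95 to 27.99 FPKM in knockout, lowest in replicate 5, and 22.995 to 39.58 FPKM in wild type. Carmn, a smooth muscle lncRNA set aside by name, was at 9.42 to 12.5 FPKM in knockout and 11.95 to 17.97 FPKM in wild type. Of 4 listed fibroblast lncRNAs, 3 (Dnm3os, Meg3 and H19) were above 0. Their sum was 3.01 to 16.8 FPKM in knockout, highest in replicate 5, and 2.19 to 5.08 FPKM in wild type, and the part of these cell types in the values of the lincRNA genes was not tested. In a bulk sample, fewer cells of a type and less RNA per cell cannot be told apart. Knockout replicate 5 stood apart from the rest: Malat1 was at 951 FPKM in it, against 58.4 to 81.8 FPKM in the other 9 libraries. It was also the extreme library by at least 1 on the log2(FPKM + 1) scale for 7 of the 65 lincRNA genes, while each of the other 9 was so for at most 1. It gave the lowest of 10 values for 20 of the 65 genes, with a tie counted for 1 library only, and the highest for 8. For Rmrp, counted among the 20, wild-type replicates 3, 5 and 6 were listed at 0 as well. The counts of genes lower in knockout, and the differences of some named genes, are given with and without knockout replicate 5.

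Most of the 65 genes were read at a low level. The mean over 10 libraries was 1 to 2 FPKM for 40 genes, 2 to 5 FPKM for 17, 5 to 10 FPKM for 3 and at least 10 FPKM for 5, and the median of the means was 1.56 FPKM. By the estimated depth, the median gene rested on 62 fragments per library, and 28 of the 65 had a median under 50. Just inside the limit lay Gm19277 and Gm26890 (mean 1.01 FPKM each), Gm21781 (1.02), 1810044D09Rik (1.04), AL805899.2 (1.07), Gm5860 and Gm14532 (1.08 each) and 2900076A07Rik (1.1). Just outside lay 5930430L01Rik (0.993), 1110019D14Rik (0.976), Jpx (0.976), Gm46565 (0.962), C030014I23Rik (0.943), Gm49390 (0.940) and Gm6416 (0.902). Jpx is an X-chromosomal activator of Xist. It overlaps Ftx, which was inside the limit, on the opposite strand.

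**Figure D1:**
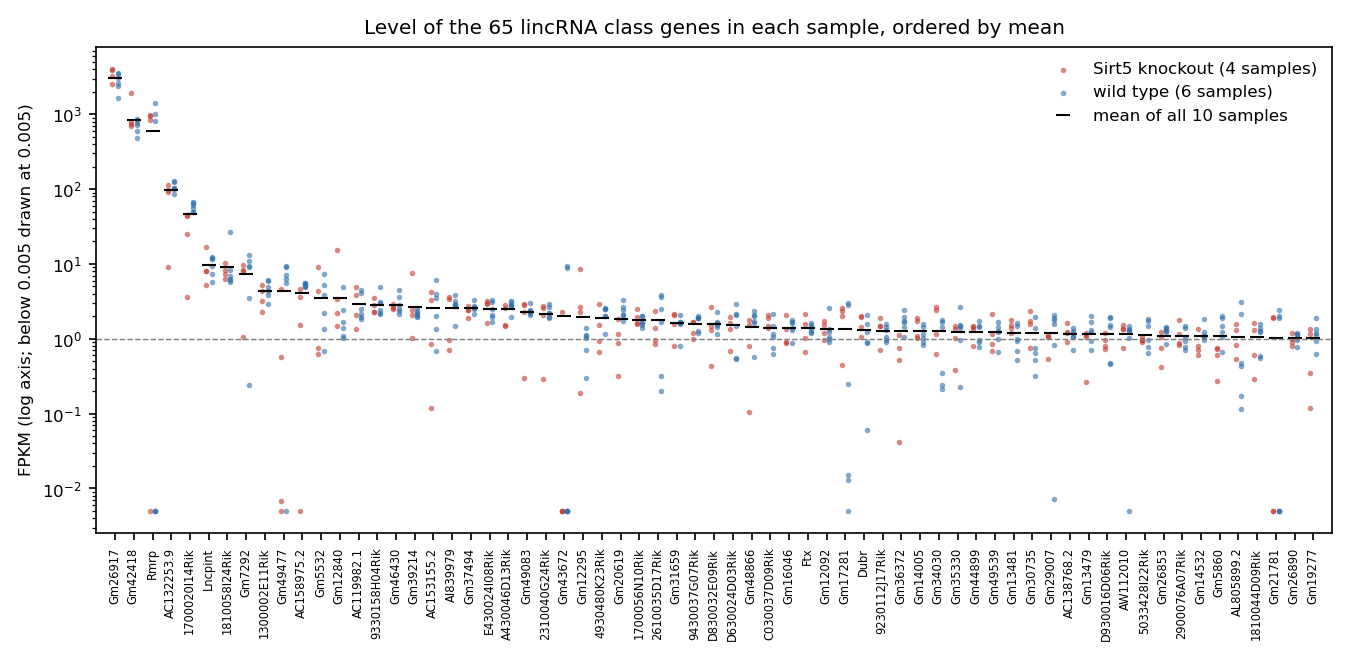
FPKM of the 65 lincRNA genes on a log axis, ordered by mean, with 1 point per library (Sirt5 knockout left in each column, wild type right), a bar at the mean of all 10 libraries and a dashed line at 1 FPKM; values below 0.005 are drawn at 0.005. Gm26917, at 1656 to 4013 FPKM, and few others stand far above the rest, and 40 of the 65 means lie between 1 and 2 FPKM.

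The class label held for most but not all of the 65. RefSeq names matched 42 of them, and RefSeq classes 36 as long non-coding RNA, 4 as protein coding (1810058I24Rik, Gm46430, Gm37494 and D930016D06Rik), Gm42418 as a pseudogene and Rmrp as the RNA of RNase MRP. Besides, 6 of the 65 overlap a coding gene in GENCODE, 4 on its opposite strand and 2 on its own strand, so they are not intergenic in the strict sense. The genes had 191 transcripts in the table, and 30 of the 65 had a single one. Of the 35 with several, 12 drew less than 50% of their FPKM from their main transcript.

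At the top stood RNAs tied to the ribosome. Gm26917 and Gm42418 lie 617 bases apart on chromosome 17 (GRCm38 chr17:39843013-39846341 and chr17:39846958-39848788, plus strand). RefSeq classes Gm42418 as a pseudogene related to 18S ribosomal RNA. Gm26917 was at 3891, 4013, 3200 and 2507 FPKM in knockout replicates 2, 3, 4 and 5, against 1656 to 3540 FPKM in wild type with a median of 2829. Gm42418 was at 697, 777 and 730 FPKM in knockout replicates 2, 3 and 4 and at 1895 FPKM in replicate 5, against 488 to 860 FPKM in wild type with a median of 749. The genotypes overlapped for both, and the highest Gm42418 value came from knockout replicate 5. The limma adjusted p was 0.657 for each, with log2 fold changes of 0.31 (SE 0.233) for Gm26917 and 0.41 (SE 0.308) for Gm42418. Without knockout replicate 5 they were 0.45 for Gm26917 and 0.07 for Gm42418. The design text names more than 1 kit for removing ribosomal RNA and does not assign them, and the part of the kit in these levels was not tested.

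Rmrp, the RNA of the ribonuclease that cuts ribosomal RNA precursors, is a single-exon transcript of 281 bases on the minus strand (GRCm38 chr4:43492783-43493063), and starts 163 bases from the start of Ccdc107 on the opposite strand. It is shown whole because it had the widest range of the 65 genes on the log2(FPKM + 1) scale. The sequence is that of the GENCODE transcript, with no part in capitals.

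Rmrp: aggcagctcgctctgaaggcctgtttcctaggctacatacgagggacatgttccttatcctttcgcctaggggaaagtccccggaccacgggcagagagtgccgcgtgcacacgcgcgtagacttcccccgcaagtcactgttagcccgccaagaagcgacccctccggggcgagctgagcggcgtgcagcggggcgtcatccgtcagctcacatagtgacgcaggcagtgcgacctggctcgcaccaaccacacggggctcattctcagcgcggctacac

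Rmrp was either very high or listed at 0. Knockout replicates 2, 3 and 4 had 827, 948 and 963 FPKM and replicate 5 was listed at 0. Wild-type replicates 1, 4 and 7 had 824, 1011 and 1434 FPKM, and replicates 3, 5 and 6 were listed at 0. No library had a value in between, and both genotypes held libraries of either kind. By the estimated depth, the libraries above 0 held 5998 to 9945 fragments of Rmrp, and the others held 0. An exact 0 in a file of estimated FPKM can be a failed estimate, and which it is was not tested.

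From a list of 15 symbols related to ribosomal RNA, 5 were above 0 in the table and these 3 were among the 65.

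AC132253.9 (GRCm38 chr19:9828899-9836897, minus strand) lies 10665 bases from the start of Scgb2a2 and has no RefSeq match. Its level was 114, 97.5, 90.8 and 9.19 FPKM in knockout replicates 2, 3, 4 and 5, against 86.0 to 128 FPKM in wild type with a median of 104. Replicate 5 alone stood below the wild-type range, far from it, and the other 3 knockout libraries lay inside it. Its log2 fold change was -0.92 (SE 0.606, limma adjusted p = 0.609), and -0.09 without knockout replicate 5 (limma adjusted p = 0.922).

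1700020I14Rik is the mouse Cyrano RNA, which RefSeq lists as Oip5os1 (GRCm38 chr2:119594297-119607502, plus strand; it ends 2010 bases from the end of Oip5). Cyrano is known for a long, conserved site that pairs with the microRNA miR-7 almost along its whole length and brings about the decay of that microRNA. The site and the microRNA are shown because they carry the known role of the most abundant spliced lincRNA with a named function here. Capitals mark the seed of the microRNA (bases 2 to 8) and its match in the RNA, and the site lies at chr2:119602135-119602161 on the plus strand of GRCm38, positions 2933 to 2959 of a transcript of 8300 bases.

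mmu-miR-7a-5p: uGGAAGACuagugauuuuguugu
1700020I14Rik site: gaacaacaaaatcaccaatGTCTTCCa

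Of 15 bases beyond the seed, 14 pair with the site once a shift of 2 bases is allowed, and the transcript holds 2 matches to the seed in all. The microRNA sequence is from RefSeq (GRCm38.p6) and its level was not measured here. Cyrano was at 3.66, 44.1, 45.1 and 25.3 FPKM in knockout replicates 2, 3, 4 and 5, against 49.0 to 67.0 FPKM in wild type with a median of 58.5. Every knockout library lay below every wild-type library, with replicate 4 close to the lowest wild-type value and replicate 2 far below it. The log2 fold change was -1.38 (SE 0.570, unadjusted p = 0.0345), and with limma over 1122 genes and loci the adjusted p was 0.404. Without knockout replicate 2 the log2 fold change was -0.62 and the limma adjusted p was 0.50. By estimated depth the 4 knockout libraries held 504, 8309, 8026 and 4785 fragments of it.

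Cyrano had transcripts of 8300 and 1381 bases in the table, and StringTie divides shared reads between them by estimation. The long one, ENSMUST00000153581, was at 2.09, 41.0, 42.2 and 24.2 FPKM in knockout replicates 2, 3, 4 and 5, against 35.5 to 53.6 FPKM in wild type. The short one, ENSMUST00000147425, was at 1.57, 3.07, 2.89 and 1.13 FPKM in the same knockout libraries, against 13.4 to 17.2 FPKM in wild-type replicates 1, 4, 5, 6 and 7 and 1.58 FPKM in wild-type replicate 3. The genotypes overlapped for the long transcript and, through wild-type replicate 3, for the short one. The transcript values have no test of their own.

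Lncpint, a target of p53 that is known to bind the polycomb repressive complex PRC2, was at 5.18, 8.07, 17 and 8.12 FPKM in knockout replicates 2, 3, 4 and 5, against 5.72 to 12.2 FPKM in wild type with a median of 10.5. The genotypes overlapped for Lncpint, with knockout replicate 2 below the wild-type range and replicate 4 above it. Its log2 fold change was -0.08 (SE 0.315, limma adjusted p = 0.959), and 0.14 without knockout replicate 2. Of its transcripts, ENSMUST00000231083 was at 6.49 FPKM in knockout replicate 4 and 5.03 FPKM in wild-type replicate 1, and at 0.405 FPKM or less in the other 8 libraries. This transcript of 431 bases made up 6.49 of the 17 FPKM of knockout replicate 4.

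Further genes with a known role were much lower. Ftx, which lies in the X-inactivation centre and raises Xist, was at 0.657, 1.01, 1.59 and 2.14 FPKM in knockout replicates 2, 3, 4 and 5, against 1.19 to 1.65 FPKM in wild type. Its knockout libraries spread on both sides of the wild-type range (log2 fold change -0.07, SE 0.162, limma adjusted p = 0.914). The difference was -0.22 without knockout replicate 5 and 0.09 without knockout replicate 2. Xist itself was at 0 to 0.0226 FPKM in the 10 libraries. Gm14005, which RefSeq names Morrbid and which is known in mouse myeloid cells to restrain the death gene Bcl2l11 near it, was at 1.01 to 1.88 FPKM in knockout and 0.837 to 1.58 FPKM in wild type. Dubr, also called Dum and known from myoblast differentiation, was at 1.04, 1.45, 1.96 and 2.00 FPKM in knockout replicates 2, 3, 4 and 5, against 0.0601 to 2.09 FPKM in wild type with a median of 1.08. AW112010, an RNA of activated mouse immune cells from which a protein is known to be made, was at 1.37, 1.54, 1.34 and 0.747 FPKM in knockout and at 1.04 to 1.47 FPKM in 5 wild-type libraries, with replicate 1 listed at 0. None of these separated the genotypes. A list of 49 symbols was written for lncRNAs studied in the heart, and it holds Cyrano under more than 1 name. Of these symbols, 32 were above 0 in the table and 5 were among the 65 (Lncpint, Ftx, Gm12840, 1700020I14Rik and Gm17281), 0 of which passed the limma threshold.

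Among the genes that RefSeq classes as coding, 1810058I24Rik makes a short protein of mitochondria known as Stmp1 or Mm47. It was at 10.4, 7.30, 8.26 and 6.33 FPKM in knockout replicates 2, 3, 4 and 5, against 5.68 to 27.0 FPKM in wild type with a median of 6.53. Wild-type replicate 6, with 27.0 FPKM, stood far above all 9 other libraries, and the genotypes overlapped (log2 fold change -0.07, SE 0.382, limma adjusted p = 0.965). The sign turned without that library, to 0.24 (limma adjusted p = 0.714), and without knockout replicate 5, to 0.02. Gm37494 was at 1.91 to 2.71 FPKM in knockout and 2.12 to 3.33 FPKM in wild type, and Gm46430 at 2.49 to 2.88 FPKM in knockout and 2.13 to 4.50 FPKM in wild type. From the list of micropeptide genes written for this comparison, 2 of 16 symbols were above 0 in the table, and 1810058I24Rik was the member among the 65.

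Between the genotypes, none of the 65 genes passed an adjusted p of 0.05 with limma (0 of 65, against 0.178% of all 1122 genes and loci tested). The smallest adjusted p was 0.143. At an unadjusted p below 0.05, 6 genes were lower in knockout (9.23%, against 8.56% of all loci) and 0 were higher (against 3.12% of all loci). The share lower is thus close to that of the whole table. Of the 65, 41 had a lower and 24 a higher log2 mean in knockout (63.1% lower, against 55.5% of all loci), with a median log2 fold change of -0.08 against -0.03 over all loci. After rescaling each library to a common table sum, which moved the median of all loci to -0.14, 50 of the 65 were lower (76.9%, against 72.5% of all loci). When Gm26917, Gm42418 and Rmrp were left out of that sum, 41 of the 65 were lower (63.1%, against 52.0% of all loci). Without knockout replicate 5 the split was 36 lower of 65 (55.4%, against 54.7% of all loci), and 6 genes were again lower at an unadjusted p below 0.05 (against 5.92% of all loci), 5 of them shared with the full set of libraries.

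The genotypes did not overlap for 2 of the 65 genes, 1700020I14Rik and AC158975.2, both lower in knockout (against 2.14% of all loci), and for 0 genes higher in knockout (against 1.07%). The summed FPKM of the 62 genes left when Gm26917, Gm42418 and Rmrp are set aside was 228, 274, 259 and 151 in knockout replicates 2, 3, 4 and 5, against 276 to 320 in wild type. No overlap remained there, but it rested on AC132253.9 and 1700020I14Rik. Without these as well, the other 60 summed to 110 to 133 FPKM in knockout and 121 to 156 FPKM in wild type, and the genotypes overlapped.

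The 6 genes lower in knockout at an unadjusted p below 0.05 were Gm20619, Gm36372, Gm5860, AC158975.2, Gm49477 and 1700020I14Rik, and no function is known here for the first 5. The promoter of the first in order of p, Gm20619, is shown beside that of Cyrano, as the lower genes with the smallest p and with the highest level. Each covers 250 bases before and 50 bases after the start annotated by RefSeq, on the plus strand of GRCm38.p6 (chr6:6248409-6248708 and chr2:119594046-119594345). Capitals mark GC boxes, GGGCGG or its reverse complement.

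Gm20619 promoter: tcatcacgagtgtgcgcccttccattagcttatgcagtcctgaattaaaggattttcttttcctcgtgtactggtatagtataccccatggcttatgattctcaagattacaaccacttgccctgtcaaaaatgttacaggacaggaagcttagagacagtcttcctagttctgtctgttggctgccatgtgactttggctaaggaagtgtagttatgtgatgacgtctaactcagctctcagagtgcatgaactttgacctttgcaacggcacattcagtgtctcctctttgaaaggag
1700020I14Rik promoter: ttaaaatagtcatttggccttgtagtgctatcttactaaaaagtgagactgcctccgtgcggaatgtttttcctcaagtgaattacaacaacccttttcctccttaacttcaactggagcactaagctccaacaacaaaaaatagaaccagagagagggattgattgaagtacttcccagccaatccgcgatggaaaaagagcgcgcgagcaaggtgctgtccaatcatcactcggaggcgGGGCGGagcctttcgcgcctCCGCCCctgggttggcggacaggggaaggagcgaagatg

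The Cyrano promoter held 2 GC boxes and 15 CG pairs at 50% GC, and that of Gm20619 held 0 GC boxes and 5 CG pairs at 44% GC. Promoters were found for 33 of the 65 genes (39 in all), and 11 of these 39 held GGGCGG on either strand (28.2%, against 35.7% of 32851 RefSeq promoters). TATAAA was in 6 of the 39 (15.4%, against 13.6%), GATAAG in 3 (7.69%, against 7.44%) and TGACGTCA in 3 (7.69%, against 1.79%), each on either strand. The median GC content was 50.7%, against 52.7% of all promoters. A match is a description of these windows and no evidence of a bound factor.

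Gm20619 (GRCm38 chr6:6248659-6378675, plus strand) starts 31486 bases from the start of Slc25a13, the mitochondrial aspartate and glutamate carrier, on the opposite strand. It was at 1.15, 1.82, 0.871 and 0.314 FPKM in knockout replicates 2, 3, 4 and 5, against 1.75 to 3.32 FPKM in wild type with a median of 2.25. Knockout replicate 3 alone reached into the wild-type range, just above its lowest value. The mean was 1.04 ± 0.626 FPKM in knockout (SD, n = 4) and 2.38 ± 0.549 FPKM in wild type (SD, n = 6), which gave -0.77 on the log2 scale (SE 0.196, unadjusted p = 0.00247) and a limma adjusted p of 0.143. Over the alternative settings the limma adjusted p ranged between 0.0744 and 0.770, and without knockout replicate 5 it was 0.286 at a log2 fold change of -0.57.

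Gm36372 (GRCm38 chr12:16204911-16221279, minus strand) has no coding gene nearer than Lpin1, 314390 bases away. It was at 0.764, 0.524, 1.12 and 0.0415 FPKM in knockout replicates 2, 3, 4 and 5, against 1.05 to 2.45 FPKM in wild type with a median of 1.69. Knockout replicate 4 lay just above wild-type replicate 1, and all other knockout libraries lay below the wild-type range. The log2 fold change was -0.78 (SE 0.203, unadjusted p = 0.00277, limma adjusted p = 0.148). Its values rested on 1 to 20 fragments per library in knockout and 21 to 57 in wild type. Gm36372 passed the 1 FPKM limit through its wild-type mean alone (1.71 FPKM, against 0.612 FPKM in knockout). No support is drawn from its difference for that reason.

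Gm5860 (GRCm38 chr4:82065431-82102808, plus strand) lies 187365 bases from Nfib, the gene of a nuclear factor I transcription factor. It was at 0.738, 0.607, 0.763 and 0.275 FPKM in knockout replicates 2, 3, 4 and 5, against 0.667 to 2.02 FPKM in wild type with a median of 1.37. Wild-type replicate 1 alone lay among the knockout libraries. On the log2 scale the difference was -0.57 (SE 0.193, unadjusted p = 0.0132, limma adjusted p = 0.325). Gm5860, like Gm36372, passed the 1 FPKM limit through its wild-type mean alone (1.40 FPKM, against 0.596 FPKM in knockout). Its difference is likewise a description only.

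AC158975.2 (GRCm38 chr18:82694287-82701336, plus strand) starts 1404 bases from the zinc-finger gene Zfp236 and runs away from it. It was at 4.67, 3.66 and 1.52 FPKM in knockout replicates 2, 3 and 4 and listed at 0 in replicate 5, against 4.88 to 5.57 FPKM in wild type with a median of 5.26. All 4 knockout libraries lay below a narrow wild-type range, replicate 2 only just. The log2 fold change was -1.13 (SE 0.393, unadjusted p = 0.0150, limma adjusted p = 0.343), and without knockout replicate 5 it was -0.63 with a limma adjusted p of 0.503. Wild type varied by a coefficient of variation (CV, the SD as a share of the mean) of 5.54%, the lowest of the 65 genes.

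Gm49477 (GRCm38 chr15:103135881-103140669, plus strand) lies 12621 bases from Smug1, a DNA repair glycosylase. It was listed at 0 in knockout replicate 2 and was at 4.62, 0.0068 and 0.57 FPKM in replicates 3, 4 and 5. In wild type it was at 1e-06 FPKM in replicate 5 and at 5.52 to 9.47 FPKM in the other 5 libraries. Every knockout library lay below those 5, and wild-type replicate 5 lay with the lowest knockout library. The log2 fold change was -1.77 (SE 0.688, unadjusted p = 0.0259, limma adjusted p = 0.403), and without wild-type replicate 5 it was -2.28 with a limma adjusted p of 0.131.

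**Figure D2:**
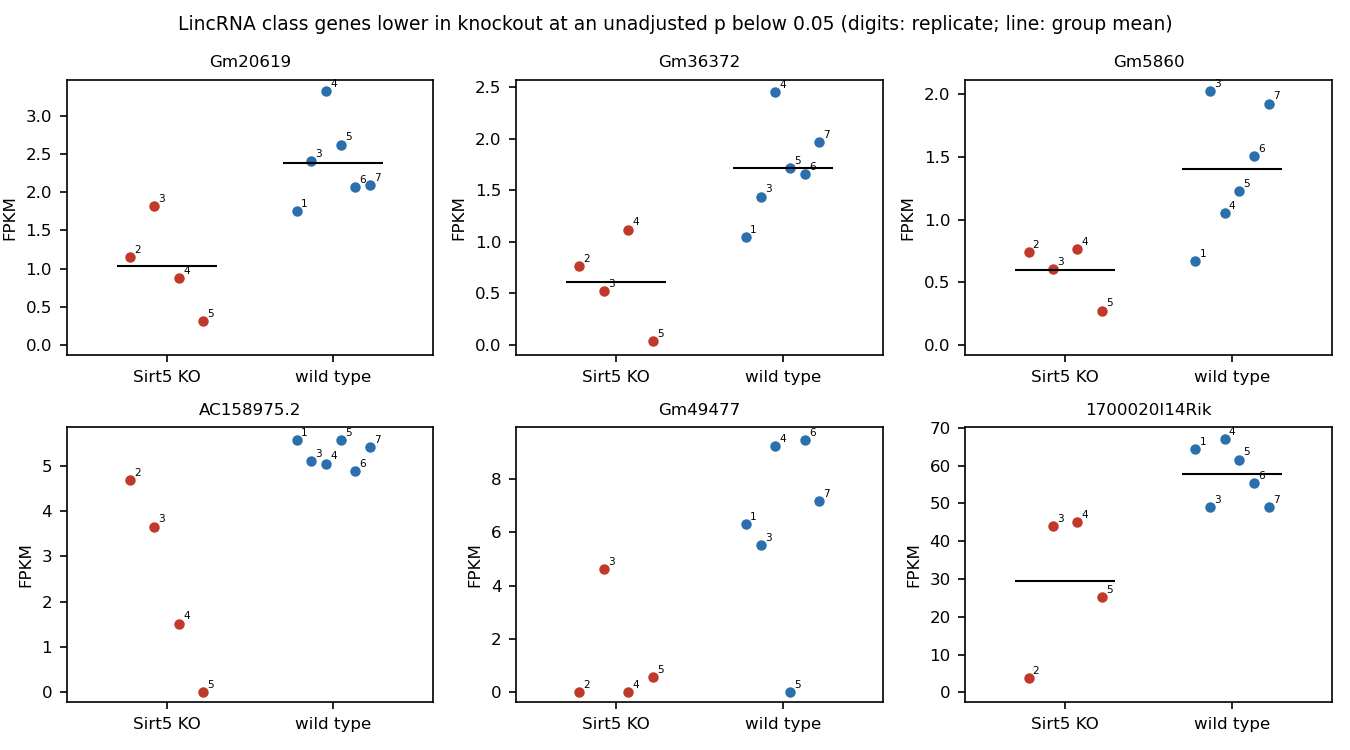
FPKM of the 6 lincRNA genes lower in knockout at an unadjusted p below 0.05, with 1 point per library numbered by replicate, Sirt5 knockout left and wild type right, and a line at the group mean where no library is at 0. The genotypes did not overlap for AC158975.2 and 1700020I14Rik, and for Gm20619, Gm36372, Gm5860 and Gm49477 at least 1 library lay within the range of the other genotype.

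Profiles over the 10 libraries, on the log2(FPKM + 1) scale, were compared for the 3 genes with the smallest p. The RNAs among the 65 most like Gm20619 were AC158975.2 (Pearson r = 0.866), Gm36372 (0.849) and 4930480K23Rik (0.836). Those most like Gm36372 were Gm20619 (0.849), Gm48866 (0.808) and Gm5860 (0.788), and those most like Gm5860 were Gm36372 (0.788), Gm48866 (0.704) and Gm20619 (0.694). Genes picked as lower in the same knockout libraries share part of their profile through that choice, and knockout replicate 5 had the lowest value of Gm20619, Gm36372, Gm5860 and AC158975.2. Over the 9 libraries without it, the same pairs had r of 0.494 to 0.717.

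On the higher side the smallest unadjusted p was 0.0838, for Gm12295 (GRCm38 chr11:65277654-65365798, minus strand). Gm12295 ends 7665 bases upstream of Myocd, the coactivator of serum response factor in cardiac and smooth muscle, on the same strand. Its level was 2.26, 2.65, 0.189 and 8.68 FPKM in knockout replicates 2, 3, 4 and 5, against 0.301 to 1.39 FPKM in wild type with a median of 1.06. Of the knockout libraries 3 lay above the wild-type range, replicate 5 farthest, and replicate 4 lay below it. On the log2 scale the difference was 0.84 (SE 0.443, limma adjusted p = 0.507), and 0.34 without knockout replicate 5. Gm12295 passed the 1 FPKM limit through its knockout mean alone (3.44 FPKM, against 0.941 FPKM in wild type). No support is drawn from its difference for that reason.

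C030037D09Rik followed (GRCm38 chr11:88718645-88728893, plus strand), whose start lies 132 bases from that of Msi2, an RNA-binding protein, on the opposite strand. The promoter between these starts is shown because it is the closest divergent pair among the 65 when overlapping genes are left out. Capitals again mark GC boxes, and the window is chr11:88718393-88718692 on the plus strand of GRCm38.p6.

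C030037D09Rik promoter: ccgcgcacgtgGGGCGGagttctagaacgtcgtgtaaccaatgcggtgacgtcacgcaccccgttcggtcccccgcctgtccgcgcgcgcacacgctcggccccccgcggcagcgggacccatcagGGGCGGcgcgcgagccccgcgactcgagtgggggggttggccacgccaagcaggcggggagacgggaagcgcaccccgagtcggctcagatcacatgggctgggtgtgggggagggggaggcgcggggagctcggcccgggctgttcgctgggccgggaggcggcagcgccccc

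The window was 75.7% GC with 42 CG pairs and 2 GC boxes. C030037D09Rik was at 1.48, 1.41, 1.91 and 2.08 FPKM in knockout replicates 2, 3, 4 and 5, against 0.627 to 2.16 FPKM in wild type with a median of 1.11. The knockout libraries lay within the upper part of the wild-type range (log2 fold change 0.33, SE 0.178, limma adjusted p = 0.524). Gm30735, 68122 bases from Frem2, was at 0.763 to 2.37 FPKM in knockout and 0.318 to 1.97 FPKM in wild type, and Gm13481, 356864 bases from Acvr2a, was at 1.18 to 1.76 FPKM in knockout and 0.524 to 1.62 FPKM in wild type. The other 4 of the 8 with the smallest p on this side were Gm12840, Gm34030, Gm17281 and Dubr. They had unadjusted limma p of 0.143 to 0.202, and the genotypes overlapped for each of them. Gm30735 and Gm34030 passed the 1 FPKM limit through the knockout mean alone, as did Gm12295. Their means were 1.62 and 1.73 FPKM in knockout, against 0.930 and 0.943 FPKM in wild type.

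Beside Hand2, a transcription factor needed for the right ventricle, lay a pair of overlapping genes on opposite strands. Gm34030 (GRCm38 chr8:57331692-57334585, minus strand) ends 7059 bases from Hand2 and was at 1.16, 2.46, 2.68 and 0.630 FPKM in knockout replicates 2, 3, 4 and 5, against 0.215 to 1.76 FPKM in wild type with a median of 0.893. Its transcript ENSMUST00000209202 was at 2.42 FPKM in knockout replicate 3, at 1.58 FPKM in knockout replicate 4 and listed at 0 in the other 8 libraries. 5033428I22Rik, listed as Hdnr in RefSeq (GRCm38 chr8:57332118-57354580, plus strand), lies 7485 bases downstream of Hand2. It was at 0.965, 1.06, 0.897 and 0.954 FPKM in knockout replicates 2, 3, 4 and 5, against 0.646 to 1.82 FPKM in wild type. The knockout libraries agreed closely and lay inside the wild-type range (log2 fold change -0.16, SE 0.174, limma adjusted p = 0.761). No source used here says whether the FPKM took account of strand, and reads of the pair may not have been told apart. Myocd and Hand2 were the only genes, of 55 cardiac transcription factors listed, that were nearest to one of the 65.

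Variability differed widely between the genes. The median CV over the 65 was 46.2% in knockout and 31.6% in wild type, and the knockout CV was the higher one in 41 genes. Without knockout replicate 5 the median knockout CV was 30.9%, and it exceeded the wild-type CV in 30 genes. Counting error alone, from the estimated fragments, would give a median CV of 12.3% in knockout and 11.5% in wild type. The variance was over 4 times that of counting in 46 genes in knockout and 45 in wild type, and at or below it in 5 and 6 genes. A CV of at least 50% was seen in 29 genes in knockout and 20 in wild type, and one under 20% in 6 genes in knockout and 12 in wild type.

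**Figure D3:**
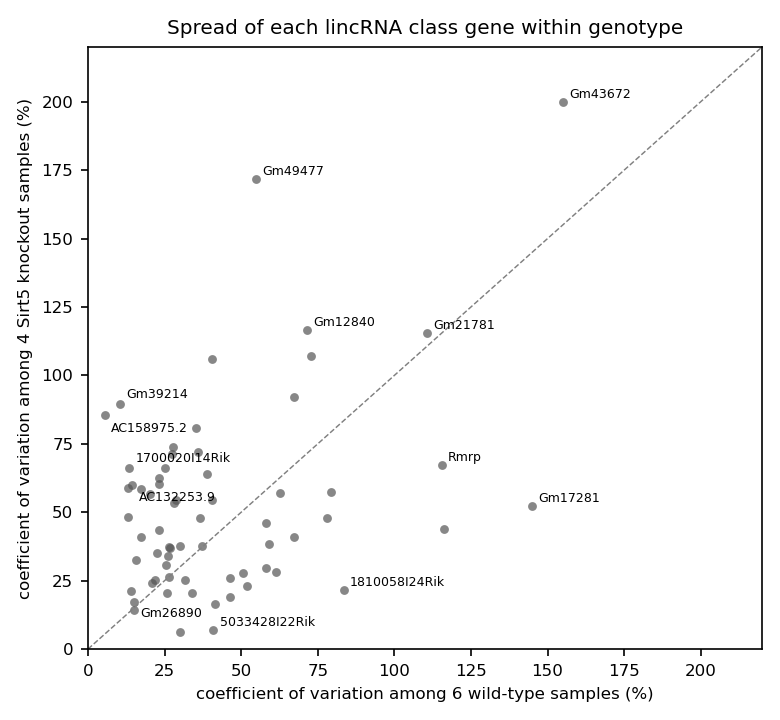
Coefficient of variation of FPKM over the 4 Sirt5 knockout libraries (vertical axis) and the 6 wild-type libraries (horizontal axis) for the 65 lincRNA genes, in percent. The median was 46.2% in knockout and 31.6% in wild type, and AC158975.2, at 85.5% in knockout and 5.54% in wild type, lies far above the diagonal.

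Among the steadier genes were Gm26890, which overlaps the splicing gene Clasrp on its own strand (CV 17.2% in knockout and 14.9% in wild type), and Gm37494 (14.3% in knockout and 15.0% in wild type). Gm46430 varied by 6.31% in knockout and 29.97% in wild type, and 5033428I22Rik by 7.03% in knockout and 41.0% in wild type. Single libraries set some of the largest CVs. Gm39214, opposite Itfg1, varied by 89.6% in knockout, where replicate 3 had 7.68 FPKM and the other 3 had 1.04 to 2.46 FPKM, and by 10.6% in wild type. Gm49083 varied by 58.9% in knockout, where replicate 5 had 0.297 FPKM and the other 3 had 2.26 to 2.93 FPKM, and by 13.2% in wild type. The log2 fold change of Gm49083 was -0.26, and 0.12 without knockout replicate 5. Gm12840, 17915 bases from Dmap1, was at 15.3 FPKM in knockout replicate 5 and at 1.48 to 3.39 FPKM in the other 3 knockout libraries, against 1.03 to 4.98 FPKM in wild type. Its log2 fold change was 0.77, and 0.19 without knockout replicate 5.

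Some genes were present in a few libraries of either genotype and near or at 0 in the others. Of the 65, 58 were above 0 in every library and 7 were listed at 0 in at least 1. Gm43672, which starts 510 bases from Tbl1xr1, was at 2.28 FPKM in knockout replicate 5 and listed at 0 in the other 3 knockout libraries, against 9.38 FPKM in wild-type replicate 3, 8.72 FPKM in wild-type replicate 7 and a listed 0 in the other 4. The libraries above 0 held an estimated 94, 411 and 373 fragments. Gm21781, 3479 bases from Zbtb2, was at 1.97 and 1.88 FPKM in knockout replicates 2 and 3 and listed at 0 in replicates 4 and 5, against a listed 0 in replicates 3, 4 and 7 of wild type, whose replicates 1, 5 and 6 had 2.42, 1.89 and 2.03 FPKM. Where it was above 0 the level was nearly equal, at 219 to 306 fragments. Gm17281, which starts 41 bases from the start of Pacsin3 on the opposite strand, was at 2.35, 2.03, 2.58 and 0.443 FPKM in knockout replicates 2, 3, 4 and 5. In wild type it was at 2.81 and 3.02 FPKM in replicates 1 and 6, at 0.245 FPKM or less in replicates 3, 5 and 7 and listed at 0 in replicate 4. Its wild-type libraries thus formed a high and a low set, with all 4 knockout libraries between them.

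AL805899.2 was at 0.537 to 1.58 FPKM in knockout, against 3.12 FPKM in wild-type replicate 4, 2.15 FPKM in wild-type replicate 1 and 0.115 to 0.477 FPKM in the other 4 wild-type libraries. Gm5532 was at 0.621, 0.752, 4.38 and 9.01 FPKM in knockout replicates 2, 3, 4 and 5, against 0.683 to 7.23 FPKM in wild type. Gm7292 was at 1.04 FPKM in knockout replicate 2 and 8.14 to 9.55 FPKM in the other 3 knockout libraries, against 0.238 to 13.0 FPKM in wild type. The libraries that were high differed from gene to gene, in both genotypes.

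**Figure D4:**
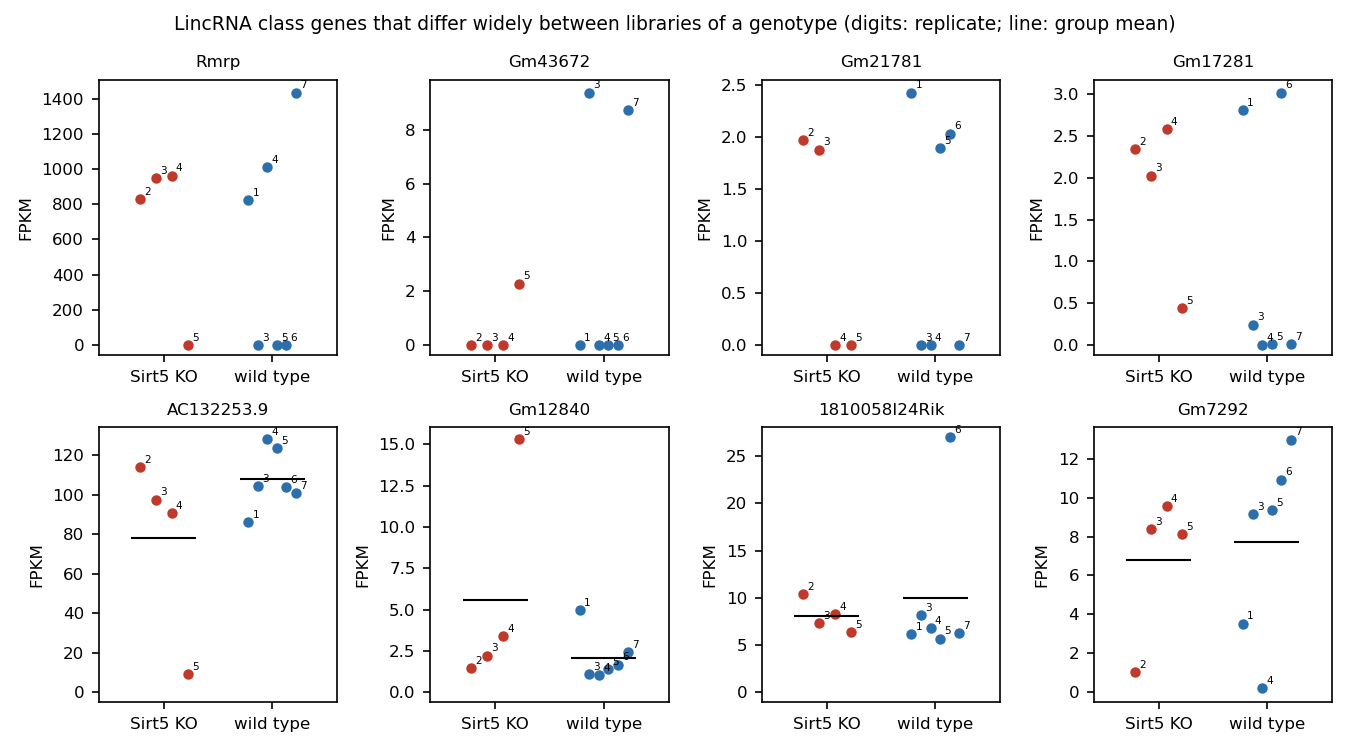
FPKM of 8 lincRNA genes whose libraries differ widely within a genotype, with 1 point per library numbered by replicate, Sirt5 knockout left and wild type right, and a line at the group mean where no library is at 0. Points of both genotypes sit at 0 for Rmrp, Gm43672 and Gm21781. Single points stand apart in Gm12840 (knockout replicate 5, 15.3 FPKM) and 1810058I24Rik (wild-type replicate 6, 27.0 FPKM).

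The nearest coding gene stood at a median distance of 9876 bases from the 65 genes, against 21852 bases for the other 2383 lincRNA genes above 0. At most 5000 bases separated 24 of the 65 from it (36.9%, against 31.8% of the others), and over 100000 bases separated 12 (18.5%, against 19.6%). By arrangement, 21 of the 65 were divergent (32.3%, against 29.3%), 14 convergent (21.5%, against 15.5%), 14 downstream on the same strand (21.5%, against 23.6%) and 10 upstream on the same strand (15.4%, against 19.7%). The choice by level makes these shares descriptions, and no test was made of them.

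A start within 2000 bases of a divergent coding gene was found for 7 of the 65 (10.8%, against 7.60% of the others). Besides C030037D09Rik, Gm43672 and AC158975.2, they were 4930480K23Rik, 243 bases from Chmp7, which acts in closing the nuclear envelope, Gm44899, 266 bases from Zfp592, A430046D13Rik, 679 bases from the myosin light chain gene Myl6b, and Gm29007, 1751 bases from the homeobox gene Meox2. A430046D13Rik was at 2.59, 1.5, 2.80 and 1.52 FPKM in knockout replicates 2, 3, 4 and 5, against 1.94 to 3.17 FPKM in wild type (log2 fold change -0.30, SE 0.158, limma adjusted p = 0.517). 4930480K23Rik was at 1.51, 2.92, 0.944 and 0.669 FPKM in the same knockout libraries, against 1.17 to 2.55 FPKM in wild type. Gm29007 was at 1.13, 1.05, 1.06 and 0.530 FPKM in knockout, against 0.0073 to 2.10 FPKM in wild type with a median of 1.69. The genotypes overlapped for all 3.

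Further neighbours included genes with a known part in the heart or in signalling. 9330158H04Rik overlaps Chrm2, the muscarinic receptor through which acetylcholine slows the heart, on the opposite strand, and was at 2.28 to 3.48 FPKM in knockout and 2.14 to 4.85 FPKM in wild type. 1300002E11Rik overlaps the kinase gene Map3k13 on its own strand, and was at 5.23, 4.34, 3.19 and 2.30 FPKM in knockout replicates 2, 3, 4 and 5, against 2.94 to 6.08 FPKM in wild type. Reads of such a host may count towards the lincRNA, and this was not tested. None of 53 genes of hypertrophy and contraction and none of 47 genes of mitochondrial metabolism listed for the comparison was nearest to one of the 65. Since messenger RNAs are not in the table, no neighbour's level could be set beside that of its lincRNA.

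**Figure D5:**
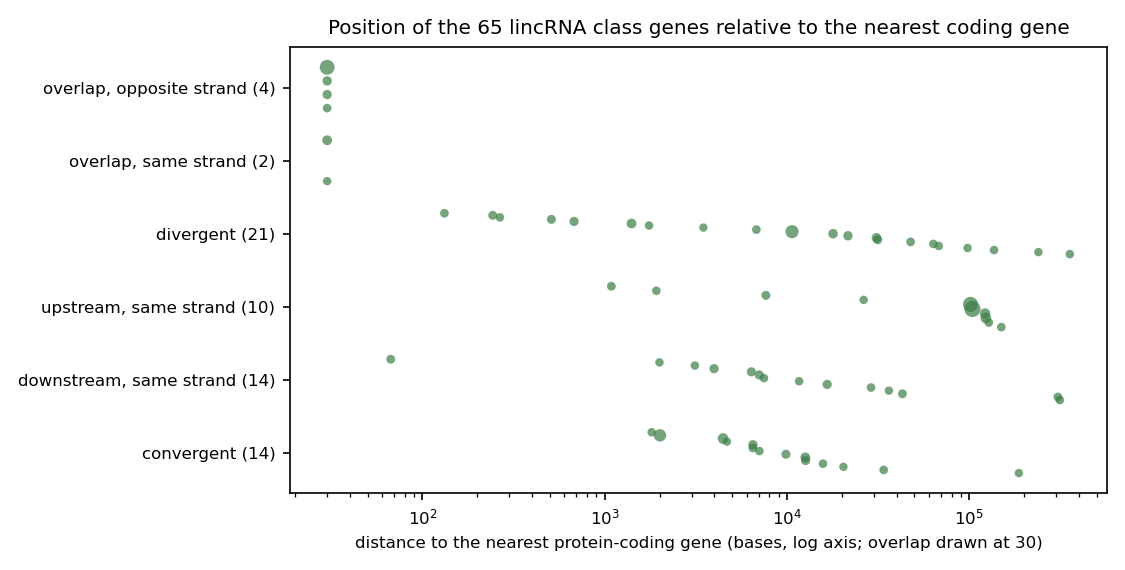
Distance of each of the 65 lincRNA genes from the nearest coding gene (horizontal axis, bases, log scale, overlap drawn at 30), in a band for each arrangement with its number of genes, and larger points for higher mean FPKM. The divergent band holds 21 genes, 7 of them with starts within 2000 bases of the coding gene.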

How the data were processed

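Strand-marked RNA libraries of 10 mouse left ventricle samples were sequenced. As the series' design text has it, the authors depleted ribosomal RNA, mapped reads to GRCm38 with HISAT2, and computed the deposited FPKM per transcript with StringTie 1.2.0. HTSeq 0.6.1 counts are named there and were not used. Whether StringTie used strand, and the version of HISAT2, are not given in the sources used here.

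Transcript FPKM were summed per GENCODE M21 gene or assembled locus (18969 of 19112 Ensembl transcripts matched). Genes and loci with a mean of at least 1 FPKM (1122) were compared, knockout against wild type, on log2(FPKM + 1) with limma 3.58.1 in R 4.3.3, with a trend, two-sided, and Benjamini-Hochberg adjustment over all 1122. A fold change on this scale understates that of low genes. Standard errors (SE) are those of the fit. Fragments per library were estimated from the step size of low FPKM of single-exon transcripts over 1000 bases, and 70.8% to 77.8% of those values were whole multiples within 5%. Intervals on counting cover counting error only. Neighbours were the nearest protein-coding GENCODE genes. Promoters, microRNAs and RefSeq names came from RefSeq tables on GRCm38.p6. Simulated data with known changes served to test the fit, and tables were joined in Python 3.11.15 (pandas 2.3.3).

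The 65 genes, the gene lists and the tests were chosen with earlier results of these data known. Named genes were the 10 highest, the 8 smallest p in each direction, the extremes of CV, genes on the lists or beside listed genes, genes with 1 library far from the others, genes near the 1 FPKM limit and those whose genotypes did not overlap. The 3 profiles most like each of the first 3 lower genes were named as well. Others were named for their neighbours or known roles after their values were seen. Alternatives were other scalings, filters and pseudocounts, other limma settings, an exact permutation test per locus (smallest possible p 0.00476), the replicate number as a block, and leaving out each library.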

Additional observations from a re-analysis of the deposited data

Results flagged for a closer look

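In 15 of 130 genotype groups, 1 library lay so far from the nearest of the others, relative to the group's range, that it passed Dixon's 95% limit. For normally distributed values chance flags about 1 in 20 groups, or 6.5 of 130. FPKM with listed zeros need not be so distributed, so setting 15 against 6.5 is no test. Of the 15, 7 were knockout groups, 5 of them through replicate 5, and 8 were wild-type groups spread over 6 libraries.

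Knockout replicate 5 stood apart for Gm42418 (1895 FPKM, against 697 to 777 in the other 3), Rmrp (listed at 0, against 827 to 963), Gm12840 (15.3, against 1.48 to 3.39), Gm43672 (2.28, against a listed 0 in each) and Gm29007 (0.530, against 1.05 to 1.13). Malat1 was also high in that library, and its part in these values was not tested. Knockout replicate 2 stood apart for Gm7292 (1.04 FPKM, against 8.14 to 9.55) and knockout replicate 3 for Gm49477 (4.62 FPKM, against 0 to 0.57).

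In wild type, replicate 6 stood apart for 1810058I24Rik (27.0 FPKM, against 5.68 to 8.19), replicate 4 for 9330158H04Rik (4.85, against 2.14 to 3.10) and replicate 3 for Gm12092 (2.58, against 0.892 to 1.34). Replicate 1 stood apart for Gm12840 (4.98 FPKM, against 1.03 to 2.43) and AW112010 (listed at 0, against 1.04 to 1.47). Replicate 5 stood apart for A430046D13Rik (1.94 FPKM, against 2.76 to 3.17) and Gm14532 (1.85, against 0.965 to 1.25), and replicate 7 for Gm26853 (0.847, against 1.24 to 1.44).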

How the results depend on the processing

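None of the 65 lincRNA genes passed the limma threshold under any of 24 alternatives, where the smallest adjusted p of any of them was 0.0744. The 16 genes with the 8 smallest p in each direction kept the direction of their log2 fold change and their side of the threshold in all 350 values computed. That choice favours a stable sign. Some named genes outside the 16 did turn, such as Gm49083 (-0.26, and 0.12 without knockout replicate 5) and Gm39214 (0.22, and -0.19 without knockout replicate 3). The number of all loci called was 2, and it was 1 at a mean of at least 0.1 FPKM, 0 with no filter, 7 after rescaling to a common sum, 4 after quantile normalization, 1 without the trend, 3 with a pseudocount of 0.1, 5 with robust moderation and 8 with array weights. The exact permutation test called 0 loci, but it could not have called any, as its smallest possible p was 0.00476. Only loci whose genotypes do not overlap can reach that p (24 lower and 12 higher in knockout), too few to pass the adjustment over 1122. No conclusion is drawn from this test, here, among the 24 alternatives or in the 350 values. Leaving out 1 library gave 0 to 2 calls. The median log2 fold change of the 65 genes, -0.08, was -0.21 after rescaling to a common sum, -0.0523 with median-of-ratios scaling, -0.0510 after quantile normalization, -0.0408 with array weights and -0.11 for the genes of at least 2 FPKM. Leaving out 1 library moved it between -0.12 and -0.0268, its value without knockout replicate 5. With Gm26917, Gm42418 and Rmrp left out of the common sum, the median was -0.0616. The cause of these shifts was not tested. The difference in summed FPKM without Gm26917 and Gm42418 was 67.3 (knockout minus wild type), and 992 with them. It ranged between -43.9 and 321 when 1 library was left out, and was -72.4 also without Rmrp (chosen after seeing the data) and -7.58 after rescaling to a common sum.

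Replicate numbers 3, 4 and 5 occur in both genotypes, and deviations of same-numbered libraries correlated at -0.16, 0.18 and 0.08. So few correlations cannot decide whether the numbers pair the libraries. Knockout 3 and 4 correlated best with wild type 4, and knockout 5 with wild type 3. With the replicate number as a block 0 loci were called and the median of the 65 genes was -0.07. Low fragment numbers limit 28 of the 65 genes.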
